A study of Rattus norvegicus with 6 samples.

Results

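Tubulin isotypes are the products of a gene family whose alpha and beta members pair to form the subunit of the microtubule. The 10 genes described here were taken by symbol from the 15227 genes listed in the gene counts of 6 droplet libraries from rat cerebral hemisphere, and all 10 were found. They are 4 alpha genes (*Tuba1a*, *Tuba1b*, *Tuba1c* and *Tuba4a*) and 6 beta genes (*Tubb2a*, *Tubb2b*, *Tubb3*, *Tubb4a*, *Tubb5* and *Tubb6*). The genes were chosen by name, knowing earlier results on their measured UMI counts in these cells, and the cell classes were chosen by the UMI counts of marker genes, so levels by class are descriptions without a test. Control rats (NC, 3 libraries) were compared with rats made to inhale carbon monoxide (CO, 3 libraries), a gas that binds haemoglobin and deprives tissue of oxygen. The exposure was 1000 ppm for 40 min and then 3000 ppm for 20 min, to a carboxyhaemoglobin above 60% with impaired consciousness. Both groups were untreated otherwise as far as the labels say, and the strain, sex and age of the rats, and the time from exposure to sampling, were not given in the sources used here. Hemispheres were dissociated with trypsin and DNase before capture, which limits the cells to those that survive it, and mature neurons were few (5 NC and 50 CO cells by their markers).

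A microtubule is a hollow polymer of alpha-beta tubulin dimers that grows and shrinks at its ends, carries motor proteins and gives axons, cilia, myelin-forming processes and the mitotic spindle their shape. The isotypes are nearly identical in their cores and differ mainly in the C-terminal tail, where modifying enzymes and associated proteins act. In the nervous system *TUBA1A* and *TUBB2B* are known from human malformations of the cortex, *TUBB3* from human disorders of axon guidance, and *TUBB4A* from human hypomyelination.

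The promoters of 4 of the 10 genes are shown because their transcripts set the results apart: *Tubb3* and *Tubb4a* were each high in 1 cell class, and *Tuba1c* and *Tubb6* had the largest CO over NC ratios in endothelial cells. Each sequence is the 250 bases before the gene's annotated start, 5′ to 3′ on the gene's strand, from RefSeq on GRCr8; all 10 genes matched this table by symbol. Capitals mark CCAAT or its reverse ATTGG (the CCAAT box), GGGCGG or its reverse CCGCCC (the GC box), and TATAAA or its reverse TTTATA (the TATA box); no marked matches overlapped in these windows.
*Tubb3* (chr19:68365437-68365686, plus strand): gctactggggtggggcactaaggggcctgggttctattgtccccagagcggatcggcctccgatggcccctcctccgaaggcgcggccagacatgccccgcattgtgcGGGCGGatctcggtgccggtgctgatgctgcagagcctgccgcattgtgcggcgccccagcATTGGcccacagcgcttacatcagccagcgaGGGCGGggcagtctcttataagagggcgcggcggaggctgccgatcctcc
*Tubb4a* (chr9:2012282-2012531, minus strand): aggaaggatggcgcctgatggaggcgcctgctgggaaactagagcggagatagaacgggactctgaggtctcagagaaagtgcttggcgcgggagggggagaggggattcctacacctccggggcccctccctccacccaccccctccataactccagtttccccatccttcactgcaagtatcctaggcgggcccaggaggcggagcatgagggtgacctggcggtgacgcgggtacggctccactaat
*Tuba1c* (chr7:132070734-132070983, plus strand): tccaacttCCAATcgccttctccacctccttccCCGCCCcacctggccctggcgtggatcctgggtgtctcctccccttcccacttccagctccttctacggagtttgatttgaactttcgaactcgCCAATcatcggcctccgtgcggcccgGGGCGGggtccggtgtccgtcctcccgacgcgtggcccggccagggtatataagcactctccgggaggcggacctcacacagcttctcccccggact
*Tubb6* (chr18:63213037-63213286, plus strand): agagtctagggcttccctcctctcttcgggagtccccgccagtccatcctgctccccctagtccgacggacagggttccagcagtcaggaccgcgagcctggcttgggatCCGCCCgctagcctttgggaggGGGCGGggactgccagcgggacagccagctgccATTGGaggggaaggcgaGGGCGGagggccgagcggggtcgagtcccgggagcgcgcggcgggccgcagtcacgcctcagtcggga
The *Tubb3* window held 1 CCAAT box and 2 GC boxes, *Tuba1c* held 2 of each, *Tubb6* held 1 CCAAT box and 3 GC boxes, and the *Tubb4a* window held none of the 3 motifs. Over all 27457 promoters of this length, 34.3% held a CCAAT box, 32.4% a GC box and 13.1% a TATA box. Among the 10 tubulin windows 7 held a CCAAT box, 8 a GC box and 1 (*Tubb2a*) a TATA box, and a match is a run of letters, not a shown binding site. In the same annotation *Tuba1a* and *Tuba1b* are neighbours on chromosome 7, where *Tuba1c* also lies, and *Tubb2a* and *Tubb2b* lie on either side of *Tubb2al1* on chromosome 17. *Tuba4a* and *Tubb4a* are on chromosome 9, *Tubb6* on 18, *Tubb3* on 19 and *Tubb5* on 20.

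The libraries held between 39494470 and 47322264 UMIs (unique molecular identifiers, each counting 1 captured transcript). After filters 35772 cells remained, 19019 NC and 16753 CO, with median UMIs of 4705 and 5542, and 31483 of them entered 1 of 18 classes by their marker genes. No tubulin gene was among the markers. In 10 classes every library had at least 30 cells. The 3 libraries of a group differed over cells about as little as random parts of 1 pool (the ratio of the spread between libraries to that within them averaged 1.02 in NC and 1.10 in CO), although the series description speaks of 3 rats a group. Each group was therefore counted as 1 sample: levels are counts per 1000000 UMIs of the class (CPM) over the group, beside the value of each library, and every interval is a 95% interval for counting error that says nothing of the spread between rats. A gene was called higher or lower when its CPM differed by at least 1.5-fold, its interval left out 1 and it had at least 30 UMIs over the 2 groups compared. A UMI is counted once per transcript, so CPM needs no correction for gene length, though capture may differ between genes. Related tubulin genes share long stretches of sequence, so that reads may be dropped or placed on the wrong copy, and *Tubb2a* against *Tubb2b* and *Tuba1a* against *Tuba1b* and *Tuba1c* are uncertain to that degree.

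Neuroblasts, the migrating young neurons of the adult forebrain, held the most tubulin transcript of the 10 classes. The 10 genes summed to 19747, 19666 and 18240.5 CPM in the 3 NC libraries and 17763, 17801 and 17894 CPM in the 3 CO libraries. Oligodendrocytes, the myelin-forming cells, came next with 6606, 6657 and 6449.9 CPM in NC and 6682, 6989 and 6817 CPM in CO. Each of the other 8 classes lay below the lowest oligodendrocyte library, from 745 CPM in T or NK cells to 2476 CPM in ependymal cells in NC. In CO the third class was endothelial cells (3305 CPM), which line the brain's blood vessels, with ependymal cells at 1929 CPM. The lowest in CO was microglia (548 CPM), the resident macrophages. Neither place was settled in NC. There the astrocyte libraries (2269, 3733 and 1312 CPM) overlapped those of ependymal cells, and the T or NK cell libraries (540.5, 906 and 733 CPM) overlapped those of microglia. The share of alpha in this sum was 50.5% in NC neuroblasts, 38.6% in oligodendrocytes and 93.0% in ependymal cells. Ependymal cells carry motile cilia, and their main beta gene was not among the 10: *Tubb4b*, the beta-tubulin of many ciliated cells, was at 1331 CPM there in NC and 1538 CPM in CO. Choroid plexus cells, which secrete cerebrospinal fluid, likewise held 840.5 CPM of *Tubb4b* in NC beside 903 CPM for the 10 genes together.

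*Tuba1a*, the main alpha-tubulin of developing neurons, led the alpha genes in neuroblasts and oligodendrocytes. In neuroblasts it was at 9292, 9317 and 8464 CPM in the NC libraries and 7583, 7586 and 8180.4 CPM in the CO libraries. The CO libraries all lay below the NC libraries, with a log2 ratio of -0.21, under the 1.5-fold that makes a call. *Tuba1a* was 92.8% (interval 92.5 to 93.2) of the alpha UMIs in NC neuroblasts and 91.5% in NC oligodendrocytes. Its level differed steeply down the order of classes, 3.87-fold from neuroblasts to oligodendrocytes (2319.5 CPM), and to 66.6 CPM in border-associated macrophages, the macrophages of the brain's coverings and vessels. Of the 9 neighbouring pairs in this order in NC, 7 had library values that did not overlap. Endothelial cells with astrocytes, and astrocytes with mural cells, were the pairs that did overlap.

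*Tuba1b*, a widespread alpha-tubulin, was the flattest of the alpha genes. Its NC level ran from 163 CPM in T or NK cells to 666 CPM in neuroblasts, a 4.08-fold range, and in NC 7 of 9 neighbouring pairs overlapped in their libraries. *Tuba1b* was the largest alpha gene in choroid plexus cells, with 46.4% of the alpha UMIs in NC and 47.7% in CO, and it was at 354, 326 and 353 CPM in the NC libraries there.

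*Tuba1c*, another widespread alpha-tubulin, had an order unlike that of *Tuba1a*. It was highest in border-associated macrophages (272, 253 and 323 CPM in NC) and in mural cells, the pericytes and smooth muscle of vessel walls (280.4, 247 and 285 CPM in NC). These classes overlapped in NC, while in CO mural cells stood above, at 414, 573 and 658 CPM. Oligodendrocytes were at the bottom with 2.19 CPM, so the class second in *Tuba1a* had almost no *Tuba1c*. In border-associated macrophages *Tuba1c* made up 44.7% of the alpha UMIs in NC and 52.2% in CO, against 10.5% and 6.43% for *Tuba1a*.

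*Tuba4a* encodes the alpha-tubulin made without the C-terminal tyrosine that the other 3 alpha genes encode, and its variants are known from human motor neuron disease. T or NK cells (119 CPM in NC), astrocytes (96.3 CPM) and choroid plexus cells (90.8 CPM) were its highest classes, with overlap between neighbours. Neuroblasts, which led for *Tuba1a*, had only 13 *Tuba4a* UMIs in NC and 17 in CO, that is 4.97 and 2.04 CPM. *Tuba4a* was thus 28.6% of the alpha UMIs of NC T or NK cells and 0.0514% of those of NC neuroblasts.

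**Figure D1:**
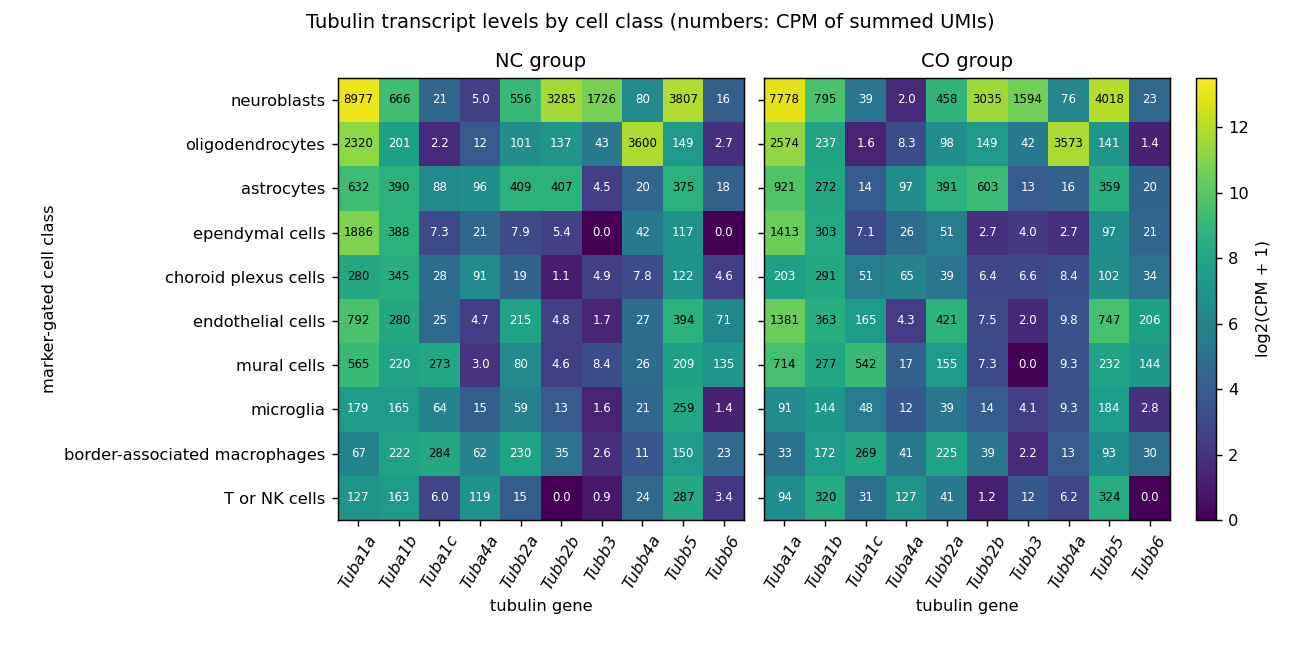
Log2(CPM + 1), as colour, of the 10 tubulin genes (columns) in the 10 cell classes (rows), in 1 panel for NC and 1 for CO, with the CPM written in each field. *Tubb4a* peaks in oligodendrocytes and *Tubb3* in neuroblasts, at 3599.6 and 1726 CPM in NC, while *Tuba1b* lies between 163 and 666 CPM in all 10 NC classes.

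Among the beta genes, *Tubb3* and *Tubb4a* had the widest gap between their first and second class. *Tubb3*, the neuron-specific beta-III tubulin, was at 1680.2, 1987 and 1584 CPM in NC neuroblasts and 1550.2, 1616 and 1616 CPM in CO neuroblasts. The second class, oligodendrocytes, was 40.3-fold lower in NC and 37.6-fold lower in CO, at 42.8 and 42.3 CPM. *Tubb3* was no larger than 8.36 CPM in any other NC class. It had no UMI in NC ependymal cells or in CO mural cells, which allows up to 1.82 and 1.99 CPM (3 UMIs over the group).

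Free RNA from broken cells can place UMIs in cells that do not make a transcript, so the low values were set beside genes of the presumed source. After thinning each cell to 2000 UMIs, 83.4% of NC neuroblasts held a *Tubb3* UMI, against 5.85% of oligodendrocytes, 0.296% of microglia and 0.443% of endothelial cells; unthinned, the shares were 92.0%, 16.3%, 0.514% and 0.717%, at median depths of 5180, 7044.5, 5137 and 4376 UMIs. For each 100 UMIs of *Stmn2*, a stathmin of young neurons, there were 52.7 of *Tubb3* in NC neuroblasts, 48.7 in NC microglia and 69.3 in barcodes under the cell minimum. In NC oligodendrocytes there were 737, with *Stmn2* at 5.81 CPM and *Dcx*, a microtubule-binding protein of migrating neurons, at 0.842 CPM. The oligodendrocyte *Tubb3* level thus came with a far higher ratio to *Stmn2* than neuroblasts had. The microglial ratio was near that of neuroblasts in NC only. In CO it was 80.2 in microglia, 53.9 in neuroblasts and 61.1 in barcodes under the minimum. Endothelial cells had 93.8 in NC and 45.9 in CO. The part of free RNA in the low *Tubb3* values was not tested.

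*Tubb4a*, the beta-tubulin of myelinating oligodendrocytes, was at 3644, 3588 and 3565 CPM in the NC and 3431, 3776 and 3525 CPM in the CO oligodendrocyte libraries. Neuroblasts were second, 45.0-fold lower in NC and 47.1-fold lower in CO, at 105, 67.4 and 67.1 CPM in the NC libraries. Here and below, beta UMIs are those of the 6 beta genes, which leave out *Tubb4b*. *Tubb4a* made up 89.3% (interval 89.1 to 89.4) of the beta UMIs of NC oligodendrocytes and 89.2% in CO, with the other 5 beta genes sharing the rest. *Tubb4b* was at 179 CPM in NC and 152 CPM in CO oligodendrocytes. In NC that was above each of those 5 genes. Of the 9 neighbouring NC pairs in its order 7 overlapped in their libraries, among them neuroblasts with ependymal cells. For each 100 UMIs of *Mbp*, the gene of myelin basic protein, there were 62.5 of *Tubb4a* in NC oligodendrocytes, 61.1 in neuroblasts, 33.5 in endothelial cells, 14.0 in microglia, 19.9 in mural cells and 29.0 in barcodes under the minimum. The neuroblast ratio was thus near that of oligodendrocytes. The endothelial ratio (33.5) was near that of the barcodes under the minimum (29.0), and the ratios of microglia and mural cells were lower than both. The part of free RNA in the low *Tubb4a* values was not tested.

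*Tubb5*, the beta-tubulin of precursor and dividing cells, and *Tubb2b*, which young neurons need to migrate, were both led by neuroblasts. *Tubb5* was at 4264, 3694 and 3488 CPM in NC neuroblasts and 4210.4, 4062 and 3771 CPM in CO, 9.67-fold and 5.38-fold above endothelial cells, the second class in both groups. *Tubb2b* was at 3056, 3549 and 3299.6 CPM in NC neuroblasts and 3021, 3088 and 2996 CPM in CO, 8.06-fold and 5.03-fold above astrocytes. Outside these classes the 2 genes parted: *Tubb5* stayed at or above 117 CPM in all 10 NC classes, while *Tubb2b* was at 4.85 CPM in NC endothelial cells and had no UMI in NC T or NK cells. Of the beta UMIs of NC neuroblasts, 40.2% were *Tubb5*, 34.7% *Tubb2b*, 18.2% *Tubb3* and 5.87% *Tubb2a*.

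*Tubb2a*, a beta-tubulin widespread in brain, was shared by neuroblasts (584, 544 and 540.4 CPM in NC) and astrocytes (413, 429.6 and 382 CPM in NC), and also reached 198, 202 and 287 CPM in NC border-associated macrophages. In the macrophages it was the largest beta gene, with 51.0% of the beta UMIs in NC and 55.9% in CO. *Tubb6*, known mainly from cells outside the nervous system, was highest in the cells of vessel walls: mural cells led in NC (126, 146 and 135 CPM) and endothelial cells in CO (211, 212 and 196 CPM). It was higher still in fibroblasts, a class too small in some libraries to be compared. There it was at 366 CPM in 102 NC cells and 495 CPM in 69 CO cells. Neuroblasts and oligodendrocytes, the classes richest in tubulin, had 15.7 and 2.72 CPM of *Tubb6* in NC.

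**Figure D2:**
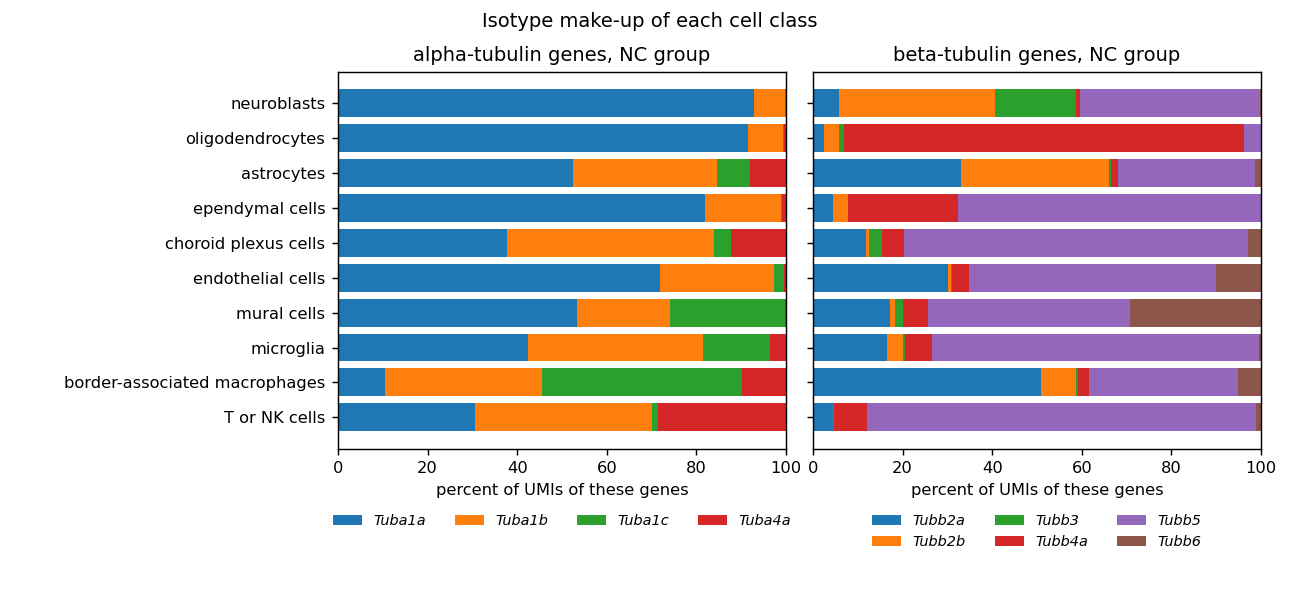
Share (%) of each gene in the UMIs of the 4 alpha genes and of the 6 beta genes, stacked, in each of the 10 cell classes (rows) of the NC group; alpha and beta have a panel each. *Tubb4a* fills 89.3% of the beta bar of oligodendrocytes, *Tuba1a* fills 92.8% of the alpha bar of neuroblasts, and *Tuba1c* fills 44.7% of that of border-associated macrophages.

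The oligodendrocyte pattern was set against the precursors of the same lineage, of which only 17 NC and 18 CO cells were gated, so these ratios rest on few cells. *Tubb4a* was 45.3 CPM in NC precursors (4 UMIs) and 83.2 CPM in CO precursors (11 UMIs), and higher in oligodendrocytes by 6.31 (interval 4.96 to 8.19) and 5.42 (interval 4.58 to 6.43) on the log2 scale. It was the 1 member called higher in either group, where 10.5% of all genes were in NC and 14.3% in CO. *Tubb2a*, *Tubb2b* and *Tubb5* were called lower in both groups, beside 22.6% and 27.0% of all genes. *Tubb2b* showed the largest of these differences in NC, from 1607 CPM in NC precursors to 137 CPM in oligodendrocytes, a log2 ratio of -3.55. *Tubb5* went from 543 to 149 CPM in NC and from 1513 to 141 CPM in CO. *Tuba1a* was high on both sides, with 2602 CPM in NC precursors and 2319.5 CPM in NC oligodendrocytes.

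Within neuroblasts, cells with at least 3 of 14 measured proliferation markers were 91 of 426 in NC (21.4%) and 188 of 1199 in CO (15.7%). Their tubulin genes differed from those of the other neuroblasts in both directions. In NC 3 members were higher, where 22.2% of all genes were, and 4 were lower, where 24.9% were. In CO 4 were higher (21.6% of all genes) and 4 lower (24.0%).

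*Tuba1b* was the main gene on the higher side. In the proliferating cells it was at 1556, 1332 and 1569 CPM in the NC libraries and 2029.7, 2056 and 1750.0 CPM in the CO libraries, against 229.9, 189 and 188 CPM in NC and 259, 226 and 268 CPM in CO in the other neuroblasts. No library of the first set overlapped any of the second, and the log2 ratios were 2.91 in NC and 2.96 in CO. *Tubb6* followed at lower levels, with 38.0 against 3.54 CPM in NC and 63.1 against 4.78 CPM in CO. *Tuba1c* had 51 UMIs in NC proliferating cells and 5 in the other NC neuroblasts, a log2 ratio of 4.23 (interval 2.91 to 5.91). In CO it had 322 UMIs and 1 UMI, a log2 ratio of 9.42 (interval 6.93 to 14.73). Without NC library 01, 1 member rather than 3 was called higher in NC. *Tubb5* was 0.39 higher in NC, short of a call, and 0.79 higher in CO.

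The neuronal isotypes were lower in proliferating cells. *Tubb3* was at 1069.6, 856 and 795 CPM in the NC libraries against 2019.7, 2353 and 2162 CPM in the other cells, and at 621, 707 and 1108 against 1974, 2079.8 and 1843 CPM in CO. The sets did not overlap in either group, and the log2 ratios were -1.27 and -1.29. *Tubb2b* (-1.03 in NC, -1.28 in CO) and *Tubb2a* (-0.85, -1.05) lay on the same side, and *Tubb4a* had -2.44 and -2.27. *Tuba1a* was called in neither group, at 8257 against 9369 CPM in NC and 7768 against 7783 CPM in CO.

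Among genes that act on microtubules, the associated and lattice-binding proteins were mostly lower in the proliferating cells. Of 19 tested in NC, 12 were lower and 2 higher, beside 24.9% and 22.2% of all genes. Their median log2 ratio was -0.85 where that of all genes was -0.06. In CO 14 of 23 were lower and 3 higher, beside 24.0% and 21.6% of all genes. *Mapt*, the axonal protein tau, had a log2 ratio of -3.76 in NC and -2.65 in CO, and *Stmn4*, a neuronal stathmin that binds free tubulin, -2.21 and -1.99. *Ckap5*, a microtubule polymerase of the spindle, was higher by 0.84 and 1.30, and *Mapre1*, which tracks growing ends, by 0.76 and 0.94. *Tubg1*, the gamma-tubulin that nucleates microtubules, was higher by 0.88 and 1.43. The nucleation list that holds it had 3 of 10 higher and 3 lower in NC (median -0.09). In CO that list had 6 of 13 higher and 1 lower (median 0.38). *Tubb4b* was also higher, by 2.81 and 3.76.

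**Figure D3:**
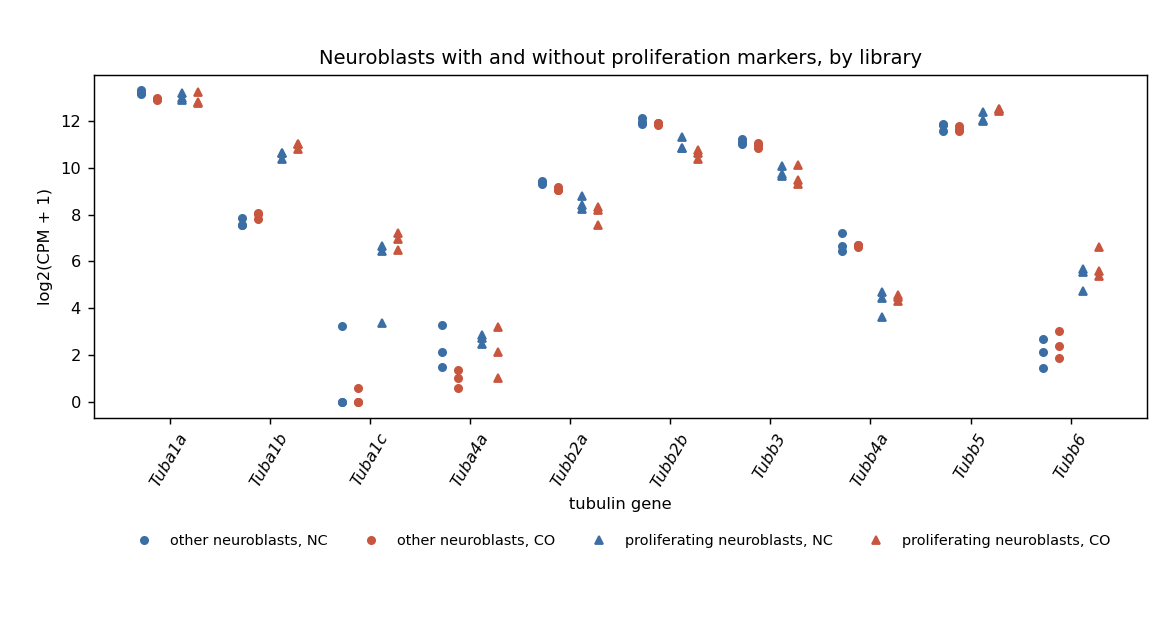
Log2(CPM + 1) of the 10 tubulin genes (horizontal axis) in proliferating and other neuroblasts, 1 point for each of the 3 NC and 3 CO libraries. The points of *Tuba1b* lie above those of the other neuroblasts in every library, with log2 ratios of 2.91 in NC and 2.96 in CO, and those of *Tubb3* below, with -1.27 and -1.29.

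The comparison of CO with NC asked how acute carbon monoxide poisoning differs from control within each class. Of the 100 pairs of tubulin gene and class, 90 had enough UMIs, and only these were judged for calls and for overlap. Of the 90, 21 were called higher in CO and 13 lower, and in 43 the CO and NC libraries did not overlap. Over all genes tested, 6.56% (oligodendrocytes) to 15.9% (T or NK cells) were called higher by class, 7.45% (neuroblasts) to 18.5% (choroid plexus cells) lower, and 25.0% (mural cells) to 49.7% (endothelial cells) did not overlap, so the 43 pairs lie within the range of all genes. Endothelial cells held 6 of the 21 higher calls, and the summed tubulin level differed most there. *Tuba1c* and *Tubb2a* were each higher in 5 classes and lower in 1. *Tubb4a* was lower in 5 classes and higher in none, all of them classes other than oligodendrocytes. In neuroblasts and oligodendrocytes, the classes with the most tubulin, the summed level differed by -0.10 (interval -0.12 to -0.09) and 0.06 (interval 0.04 to 0.07) on the log2 scale.

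**Figure D4:**
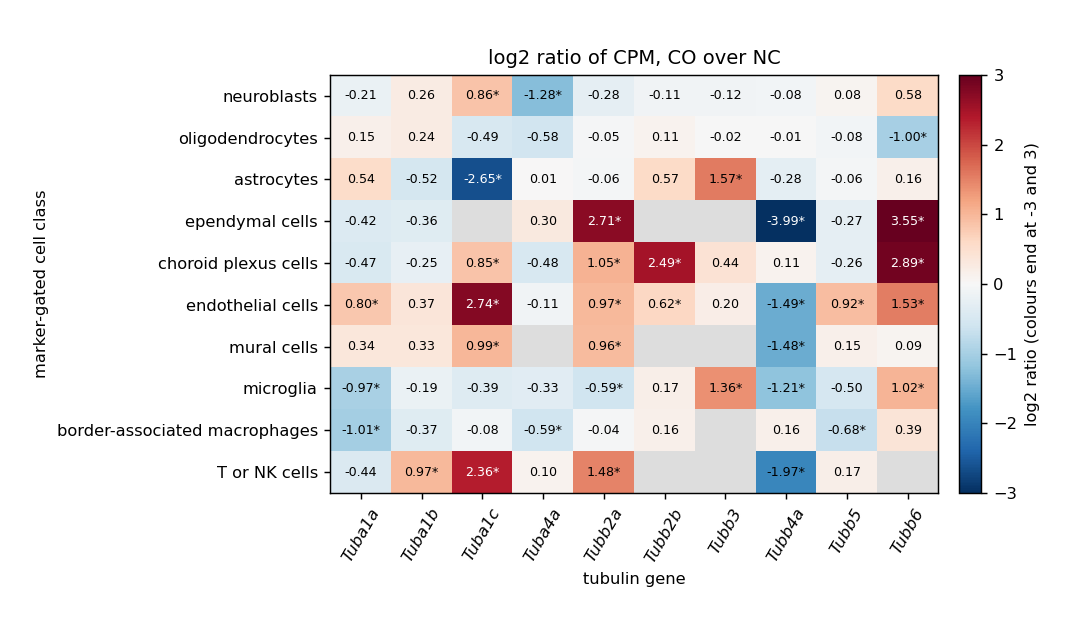
Log2 ratio of CO over NC, as colour, for each of the 10 tubulin genes (columns) in each of the 10 cell classes (rows); a star marks a call, grey a pair with under 30 UMIs, and *Tubb6* in ependymal cells is a lower bound. The endothelial row has 6 higher calls, with *Tuba1c* at 2.74 and *Tubb6* at 1.53, and the microglial row has *Tuba1a* at -0.97.

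In endothelial cells the 10 genes together were at 1788, 1819.6 and 1839 CPM in the 3 NC libraries and 3287, 3317 and 3313 CPM in the 3 CO libraries. All CO libraries stood above all NC libraries, and the log2 ratio of the sums was 0.86 (interval 0.84 to 0.88). Among the members 6 were called higher, where 11.7% of all tested genes were, and 1 lower, where 14.2% were. The members' median log2 ratio was 0.71 and that of all genes -0.06. For 7 of the 10 the libraries did not overlap, as was so for 49.7% of all genes.

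*Tuba1a*, the largest of them, was at 790.2, 802 and 785 CPM in the NC libraries and 1380.0, 1391 and 1373 CPM in the CO libraries, a log2 ratio of 0.80 (interval 0.77 to 0.83). *Tubb5* was at 389, 391 and 401 CPM in NC and 732, 739.8 and 768 CPM in CO, a ratio of 0.92 (interval 0.88 to 0.97). These main alpha and beta genes of the class thus differed by nearly the same factor. *Tubb2a* was at 204, 216 and 225 CPM in NC and 421, 412 and 427 CPM in CO, a ratio of 0.97. *Tuba1b*, already high in NC, was at 275, 279 and 286 CPM in NC and 356, 369.7 and 363 CPM in CO; its libraries did not overlap, but its ratio of 0.37 (interval 0.32 to 0.43) did not reach a call. Groups separated cleanly for each of these 4 genes.

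The 2 largest ratios belonged to genes at low level in NC. *Tuba1c* was at 26.2, 23.4 and 24.1 CPM in the NC libraries and 164, 172 and 159 CPM in the CO libraries, a log2 ratio of 2.74 (interval 2.60 to 2.89). *Tubb6* was at 67.5, 70.5 and 75.9 CPM in NC and 211, 212 and 196 CPM in CO, a ratio of 1.53 (interval 1.44 to 1.62). The make-up of endothelial tubulin among the 10 genes differed accordingly. *Tuba1c* was 2.23% of the alpha UMIs in NC and 8.61% in CO, and *Tubb6* 9.99% and 14.8% of the beta UMIs. *Tubb4b*, which these shares leave out, was at 154 CPM in NC and 293 CPM in CO, above *Tubb6* in both groups. *Tuba1a* was 71.9% and 72.2% of alpha, and *Tubb5* 55.1% and 53.6% of beta, so the shares of the leading genes differed by under 2 percentage points. *Tubb2b* had 84 UMIs in NC and 128 in CO, with a ratio of 0.62; its libraries overlapped, and its ratio was 0.34 without NC library 02 and 0.48 without CO library 03, below the call, with an adjusted p of 0.116 in edgeR with libraries as replicates. The neuroblast list, of the class richest in *Tubb2b*, was 8.67, 6.72 and 9.57 CPM in NC and 19.9, 17.7 and 13.46 CPM in CO endothelial cells (8 and 9 of 9 detected; *Dlx2* at 0 in NC). *Stmn2* was at 1.85 and 4.32 CPM there and *Dcx* at 0.346 and 0.993 CPM, and their part in the *Tubb2b* value was not tested.

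The difference was spread over the endothelial cells. The median cell had 15.4 tubulin UMIs per 10000 in NC and 31.1 in CO, the cell at the tenth percentile 3.46 and 11.9, and the cell at the ninetieth percentile 37.2 and 61.1. Each of these points of the distribution was higher in CO. With every cell thinned to 2000 UMIs (2709 NC and 2163 CO cells, 497 and 215 shallower cells left out), a cell showed on average 1.95 of the 10 genes in NC and 2.96 in CO. Cells without a UMI of any member were 8.38% in NC and 1.99% in CO when thinned, and 7.21% and 2.27% unthinned, at median depths of 4376 and 5515 UMIs.

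Marker lists of other cells were measured in the same endothelial cells. The endothelial list itself was at 20805 CPM in NC and 20709 CPM in CO, with 9 of 9 measured markers detected in both. The proliferation list was low in both groups, at 29.0, 27.4 and 26.2 CPM in the NC libraries and 23.4, 22.4 and 15.8 CPM in the CO libraries (13 of 14 detected in each; *Plk1* at 0 in NC, *Cenpf* in CO). Among endothelial cells without any UMI of a proliferation marker the same 6 members were called higher and 1 lower, beside 11.0% and 15.1% of all genes. Among those without any UMI of 8 genes of sprouting tip cells the counts were also 6 and 1, beside 10.9% and 15.9%; both sets were chosen after the data had been seen. Of those 8 tip cell genes 2 were higher in CO endothelial cells (*Angpt2* and *Pgf*, at 0.83 and 0.76) and 2 lower (*Esm1* and *Cxcr4*, at -3.10 and -0.59), with a median of -0.01. A further 4 lists of endothelial genes were also chosen after the data had been seen. In the capillary list 4 of 8 were lower (*Car4*, *Tfrc*, *Slc16a1* and *Slc22a8*) and 1 higher (*Rgcc*), with a median of -0.58 beside -0.06 for all genes. In the venous list 3 of 7 were lower and 0 higher (median -0.20), in the arterial list 1 of 7 lower and 2 higher (median -0.08), and in the growth factor and mechanical response list 2 of 10 lower and 3 higher (median 0.03). The part of these lists in the tubulin values was not tested. The pericyte and smooth muscle list was 908, 995 and 1032 CPM in NC and 1202, 1214 and 1272 CPM in CO, with 11 of 11 detected in both, and its part in the *Tuba1c* and *Tubb6* values was not tested. The oligodendrocyte list was 453, 522 and 548 CPM in NC and 229, 205 and 277 CPM in CO, with 12 of 12 detected in both. *Tubb4a*, the 1 member called lower, was at 24.3, 29.8 and 28.2 CPM in NC and 7.30, 9.69 and 12.3 CPM in CO, a ratio of -1.49, with *Mbp* at 81.7 and 75.7 CPM, and the part of the list in this value was not tested.

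Genes that fold, modify and bind tubulin were measured in the same endothelial cells, where 11.7% of all genes were called higher and 14.2% lower. Of 20 folding genes tested, which include the prefoldin and CCT chaperonin subunits, 0 were higher and 1 lower, with a median log2 ratio of -0.20. The lower gene was *Arl2* (-0.75), a small GTPase of the folding cofactors. *Ttc5*, which directs the decay of tubulin transcripts when free tubulin is in excess, was at -0.47, not a call. In the gamma-tubulin and nucleation list 0 of 12 were higher and 4 lower, *Tubg1* among them at -0.61.

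The lists that follow also stand beside 11.7% of all genes higher and 14.2% lower. Among 15 tubulin-modifying enzymes 1 was higher and 4 were lower. The lower ones included *Ttll1* (-2.93), a polyglutamylase subunit, and *Atat1* (-1.03), the alpha-tubulin acetylase. The associated proteins differed in both directions, with 4 of 23 higher and 2 lower. *Map1b*, which binds microtubules in growing processes, went from 40.4 to 87.2 CPM (log2 ratio 1.11), and *Dclk1*, a doublecortin-like kinase, from 5.54 to 14.9 CPM (1.43). *Map7*, which recruits kinesin, was lower at -0.87. Of 9 stathmins and severing enzymes 2 were higher (*Stmn3* and *Stmn2*) and 4 lower, among them *Stmn1*, which sequesters tubulin dimers, at -0.90. Motors were 3 higher and 3 lower of 20, led by *Kif21a* (1.21 to 6.66 CPM, 2.46) and *Dync1i1* (127 to 60.5 CPM, -1.07). Of the tubulin genes outside the 10, *Tubb4b* was higher, from 154 to 293 CPM (0.92). For scale, the cytoplasmic actin genes *Actb* and *Actg1* had log2 ratios of 0.32 and 0.62, and *Cldn5*, the tight junction gene of brain endothelium, -0.05.

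**Figure D5:**
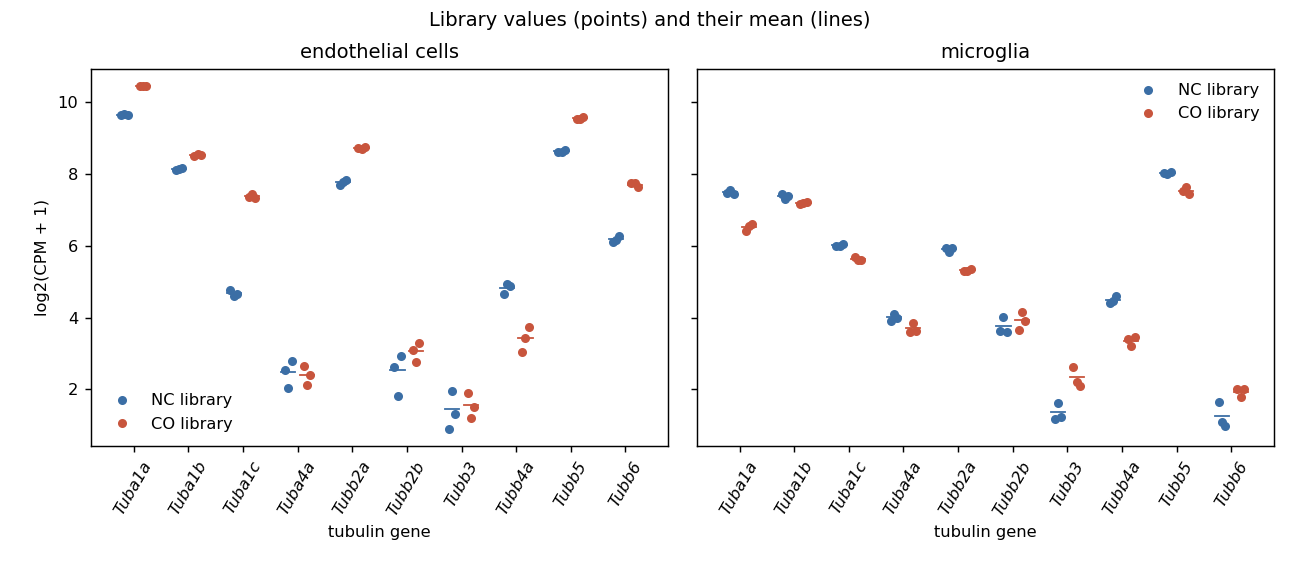
Log2(CPM + 1) of the 10 tubulin genes (horizontal axis) in endothelial cells and in microglia, with 1 point for each library of NC and CO and a line at their mean. In endothelial cells the CO points of *Tuba1c* (164, 172 and 159 CPM) lie well above the NC points (26.2, 23.4 and 24.1 CPM), and in microglia the CO points of *Tuba1a* (84.6, 93.2 and 95.3 CPM) lie below the NC points (176, 187 and 173 CPM).

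Microglia differed the other way. Their summed tubulin was 775, 773 and 781 CPM in the NC libraries and 539, 564 and 544 CPM in the CO libraries, without overlap, a log2 ratio of -0.50 (interval -0.53 to -0.48). Among the members 3 were called lower, where 9.19% of all genes were, and 2 higher, where 7.01% were. The libraries did not overlap for 9 of the 10, as was so for 47.3% of all genes, and the members' median log2 ratio was -0.36 beside -0.05 for all genes.

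*Tuba1a* was at 176, 187 and 173 CPM in NC microglia and 84.6, 93.2 and 95.3 CPM in CO, a ratio of -0.97 (interval -1.03 to -0.92). *Tubb5*, the largest member in this class, was at 257, 255 and 265 CPM in NC and 183, 196 and 173 CPM in CO, a ratio of -0.50 that is not a call. The groups were apart for both. *Tubb2a* was at 59.8, 56.0 and 59.7 CPM in NC and 38.3, 38.4 and 39.9 CPM in CO, at the edge of the call with -0.59; it was -0.57 without NC library 01 or 03 and -0.58 without CO library 01 or 02, which ended the call. *Tuba1c* was at 62.5, 62.8 and 65.2 CPM in NC and 50.8, 47.3 and 47.1 CPM in CO, a ratio of -0.39, so its direction was opposite to that in endothelial cells. The 2 members called higher were at low levels. *Tubb3* went from 1.57 to 4.05 CPM (55 UMIs in NC, 182 in CO) and *Tubb6* from 1.40 to 2.85 CPM (49 and 128 UMIs).

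The lower *Tubb4a* of CO microglia (20.1, 20.9 and 23.2 CPM in NC, 9.53, 8.23 and 9.92 CPM in CO, ratio -1.21) stood beside *Mbp* at 154 CPM in NC and 161 CPM in CO. The summed oligodendrocyte list was 999 CPM in NC and 1267 CPM in CO, with 12 of 12 markers detected in both. In barcodes under the cell minimum *Tubb4a* itself was at 581 CPM in NC and 240 CPM in CO. Oligodendrocytes were 22.2% of NC cells and 8.75% of CO cells. The part of free RNA in the microglial *Tubb4a* values was not tested. For each 100 UMIs of *Tuba1a* there were 12.02 of *Tubb4a* in NC microglia and 155 in NC oligodendrocytes, so *Tuba1a* was far larger beside *Tubb4a* in microglia than in oligodendrocytes. The neuron list was 17.6 CPM in NC microglia and 25.8 in CO (9 and 10 of 10 detected, *Snhg11* at 0 in NC), beside the *Tubb3* values, and its part in them was not tested. The proliferation list was 33.9, 27.5 and 30.4 CPM in the NC libraries and 63.3, 79.3 and 75.0 CPM in the CO libraries, with 14 of 14 detected in both; it was higher in CO, where *Tuba1b*, the gene that was high in proliferating neuroblasts, had a ratio of -0.19, not a call.

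Among the microtubule genes in microglia, *Tubg1* (-0.86), *Stmn4* (-1.51) and *Map7* (-0.90) were lower in CO, as was *Dynll1*, a dynein light chain, which went from 316 to 146 CPM (-1.12). *Map2*, a dendritic microtubule protein, was higher, from 2.55 to 7.35 CPM (1.53), as was the stathmin *Stmn3*, from 0.658 to 2.92 CPM (2.15). The folding list held 1 higher gene of 20, *Tbcb* (0.67), a chaperone that binds alpha-tubulin, and 0 lower. Of the associated proteins 1 of 23 was higher and 3 were lower. In the nucleation list 0 of 12 were higher and 3 lower, and in the stathmin and severing list 2 of 8 were higher and 2 lower. Of 21 motors 2 were higher and 1 lower, and of 15 modifying enzymes 1 was higher and 1 lower. Over all genes in microglia 7.01% were higher and 9.19% lower.

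Border-associated macrophages shared the lower side. *Tuba1a* was at 42.7, 77.9 and 78.5 CPM in NC and 27.3, 40.9 and 30.4 CPM in CO (-1.01), and *Tubb5* at 147, 156 and 147 CPM in NC and 94.5, 101 and 84.8 CPM in CO (-0.68). With *Tuba4a* (-0.59), which had -0.39 without NC library 02, -0.57 without CO library 01 and -0.58 without CO library 02, 3 members were lower and none higher, beside 13.9% and 13.1% of all genes. The libraries were apart for these 3 genes, and for 28.3% of all genes. With doublets kept the *Tuba1a* ratio was 1.09, in the other direction, and with cells thinned to 2000 UMIs the *Tubb5* ratio was -0.35 and the *Tuba4a* ratio -0.29, no calls. With libraries as replicates edgeR gave adjusted p values of 0.0389, 0.0347 and 0.199 for *Tuba1a*, *Tubb5* and *Tuba4a*, and DESeq2 0.0976, 0.0639 and 0.370, with no DESeq2 value under 0.05. The neutrophil list was 620.3, 25.4 and 14.8 CPM in the NC libraries and 3.63, 9.43 and 11.2 CPM in the CO libraries (8 and 3 of 10 detected; *S100a8* at 0 in CO), and its part in these values was not tested. *Tuba1c* and *Tubb2a*, the leading genes of this class, differed by -0.08 and -0.04.

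In mural cells, the other class of the vessel wall, *Tuba1c* was at 280.4, 247 and 285 CPM in NC and 414, 573 and 658 CPM in CO, apart, with a ratio of 0.99 (interval 0.81 to 1.17). With cells thinned to 2000 UMIs that ratio was 0.03, no call. *Tubb2a* was at 65.4, 39.9 and 121 CPM in NC and 148, 225 and 71.0 CPM in CO (0.96); these overlapped, and the ratio was 0.51, no call, without CO library 02 and -0.53 under a stricter gate on markers. The neuron list was 189, 231 and 137 CPM in NC and 368, 322 and 499 CPM in CO (4 and 6 of 10 detected; *Snap25*, *Slc17a7* and *Slc17a6* at 0 in both), and its part in these values was not tested. *Tubb6*, which was called in endothelial cells, had 126, 146 and 135 CPM in NC and 125, 156 and 151 CPM in CO (0.09). *Tubb4a* was lower (-1.48), with *Mbp* at 129.9 CPM in NC and 145 CPM in CO, and the part of free RNA in this value was not tested. These are 2 higher calls and 1 lower, beside 12.2% and 14.6% of all genes. Of the 7 members with enough UMIs 3 were apart, where 25.0% of genes were. With libraries as replicates *Tubb2a* and *Tubb4a* had adjusted p values of 0.157 and 0.148 in edgeR. Fibroblasts, too few for a call, held 233 CPM of *Tuba1c* in NC and 849 CPM in CO.

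Choroid plexus cells had 4 higher members and none lower, beside 10.0% and 18.5% of all genes, with 8 apart where 39.1% of genes were. *Tubb6* was at 2.77, 6.52 and 4.73 CPM in NC and 23.3, 31.1 and 45.7 CPM in CO (2.89), *Tuba1c* at 31.3, 26.1 and 26.7 CPM in NC and 55.0, 41.2 and 54.4 CPM in CO (0.85; 0.26, no call, with cells thinned to 2000 UMIs). Both were apart between the groups. *Tubb2a* had a ratio of 1.05 and *Tubb2b* of 2.49 at 1.13 and 6.39 CPM, while *Tuba1a* and *Tuba1b*, the leading genes, were at -0.47 and -0.25. Beside *Tubb2b*, *Stmn2* was at 0.0810 CPM in NC and 3.30 CPM in CO choroid plexus cells and *Dcx* at 0.243 and 1.998 CPM. The whole neuroblast list was 253, 338 and 285 CPM in NC and 139, 181 and 172 CPM in CO (4 and 6 of 9 detected; *Dlx2* and *Sp9* at 0 in both), and their part in the *Tubb2b* value was not tested. The median depth of these cells was 38937 UMIs in NC and 7317 in CO. The endothelial list, of a class with high *Tubb6*, was 130.2, 146 and 147 CPM in NC and 154, 134 and 123 CPM in CO (9 of 9 detected in both). The fibroblast list was 897, 1029 and 1077 CPM in NC and 1365, 1343 and 1329 CPM in CO (9 and 7 of 10 detected; *Col1a1* at 0 in NC, *Dcn*, *Lum* and *Col3a1* in CO), and the part of it and of the depth in the *Tubb6* values was not tested.

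In ependymal cells the level of *Tubb2a* was 10.2, 6.14 and 6.97 CPM in NC and 48.4, 70.4 and 35.0 CPM in CO (2.71). *Tubb6* had no UMI in NC, which allows up to 3 UMIs over the group, and was at 16.9, 16.9 and 32.0 CPM in CO, at least 11.7-fold higher; without CO library 03, and with cells thinned to 2000 UMIs, it was no call. The fibroblast list was 28.9, 8.18 and 10.4 CPM in NC and 55.2, 67.6 and 82.3 CPM in CO (3 and 7 of 10 detected; *Dcn*, *Lum* and *Col3a1* at 0 in both), and the proliferation list 151, 166 and 294 CPM in NC and 593, 502 and 509 CPM in CO (9 and 12 of 14; *Mki67* and *Ube2c* at 0 in both), and their part in the *Tubb2a* and *Tubb6* values was not tested. *Tubb4a* was at 5.10, 123 and 12.2 CPM in NC and 1.13, 2.81 and 4.57 CPM in CO (-3.99). NC library 02 stood apart there, and the oligodendrocyte list was 483, 3855 and 514 CPM in the 3 NC libraries and 241, 241 and 226 CPM in CO (12 and 11 of 12 detected; *Gjb1* at 0 in CO); without NC library 02 the ratio was -1.69, no call, and DESeq2 with libraries as replicates gave an adjusted p of 0.0659. The counts were 2 higher and 1 lower, beside 12.2% and 16.3% of all genes. Of the 7 members with enough UMIs 5 were apart, where 30.5% of genes were.

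In T or NK cells 3 members were higher (15.9% of all genes) and 1 lower (18.2%). Of the 7 members with enough UMIs 2 were apart, where 28.2% of genes were. *Tuba1b* was at 113, 203 and 160.2 CPM in NC and 232, 380.3 and 359 CPM in CO (0.97), without overlap. The proliferation list was 47.1, 251 and 46.1 CPM in the NC and 163, 1077 and 1094 CPM in the CO libraries (14 and 13 of 14 detected; *Ccnb1* at 0 in CO), and its part in this value was not tested. Under a stricter gate on markers the *Tuba1b* ratio was -1.35, and with cells thinned to 2000 UMIs -0.015. *Tuba1c* had 7 UMIs in NC and 25 in CO (2.36), a ratio between 1.52 and 3.49 and no call with NC library 02 or any CO library left out. *Tubb2a* (1.48; 1.07 without CO library 03) and *Tubb4a* (-1.97; -1.53 without NC library 02, -1.96 without NC library 03 and -1.33 without CO library 01) also lost their calls that way. With libraries as replicates *Tuba1c*, *Tubb2a* and *Tubb4a* had adjusted p values of 0.0607, 0.127 and 0.190 in edgeR.

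Astrocytes had 1 higher (13.2% of all genes) and 1 lower member (14.4%), with 2 apart where 27.9% of genes were. *Tuba1c* was at 10.6, 266 and 0 CPM in NC and 26.3, 6.02 and 11.0 CPM in CO (-2.65), and this lower call came from NC library 02, without which the ratio was 1.26. That library's astrocytes also had a proliferation list of 1485 CPM, where NC 01 and 03 had 130 and 39.4. *Tubb2b* was at 422, 472 and 322 CPM in NC and 572, 569 and 667 CPM in CO, apart, with a ratio of 0.57 that is just short of a call, and *Tubb3* was called higher with 9 UMIs in NC and 39 in CO (1.57). With libraries as replicates neither call held: the adjusted p of *Tubb3* was 0.189 in edgeR, 0.239 with the replicate block and 0.321 in DESeq2, and that of *Tuba1c* was 0.146 in edgeR. DESeq2 called *Tubb2b* higher (adjusted p 0.0307). *Stmn2* was at 8.53 CPM in NC and 13.4 CPM in CO astrocytes, and its part in the *Tubb3* value was not tested.

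Neuroblasts and oligodendrocytes had few calls. In neuroblasts *Tuba1c* was higher, at 36.1, 21.0 and 8.88 CPM in NC and 28.2, 49.9 and 38.4 CPM in CO (0.86). Its ratio was 0.40, no call, without NC library 03. Without the proliferating cells that ratio was -4.06, but on 5 UMIs in NC and 1 in CO, too few to be judged. *Tuba4a* was lower on 13 and 17 UMIs (-1.28). These calls, 1 higher and 1 lower, stood beside 11.1% and 7.45% of all genes. Leaving out any library took *Tuba4a* under 30 UMIs, with ratios from -1.80 to -0.77. With libraries as replicates *Tuba1c* and *Tuba4a* had adjusted p values of 0.1303 and 0.343 in edgeR. The libraries were apart for 2 members, *Tuba1a* and *Tubb2a*, where 26.6% of genes were. Without the proliferating cells no member was called, beside 12.1% and 8.63% of all genes, and among proliferating neuroblasts *Tuba1c* (1.13) and *Tubb6* (0.73) were higher and none lower, beside 14.3% and 11.2%. *Tubb3* was at a log2 ratio of -0.12 over all neuroblasts (interval -0.16 to -0.07). In oligodendrocytes the 1 call was *Tubb6*, lower at 2.72 and 1.36 CPM (-1.0; -0.49 without NC library 02 and -0.71 without CO library 01, no call, and 0.79 with cells thinned; adjusted p 0.152 in edgeR with libraries as replicates), beside 9.81% of genes lower and 6.56% higher. There 2 members, *Tuba1a* and *Tuba1b*, were apart, where 37.6% of genes were. *Tubb4a*, their main beta gene, had a ratio of -0.01 (interval -0.03 to 0.00).

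The genes whose levels were most like each member's were sought over the 20 sums of 10 classes by 2 groups, among 8940 genes, by Pearson's r of log2(CPM + 1), given as a description since the sums share libraries and scaling. For *Tubb4a* they were *Edil3* (0.961), *Mog* (0.959), a myelin surface protein and itself 1 of the oligodendrocyte markers, and *Qdpr* (0.959). For *Tubb3* they were *Atcay* (0.910), *Necab1* (0.893) and *Gad2* (0.893), an enzyme of GABA synthesis and itself 1 of the neuroblast markers. *Tuba1b* was most like *Ran* (0.886), *Snrpd1* (0.870) and *Dut* (0.864), the last an enzyme that keeps uracil out of DNA. *Tubb5* was most like *Smarce1* (0.907), *Dek* (0.904) and *Sez6l2* (0.897), *Tuba1a* like *Cfdp1* (0.939), *Atxn7l3b* (0.937) and *Hnrnpk* (0.930), and *Tubb2b* like *Epha3* (0.911), *Pop4* (0.905) and *Metap1d* (0.901). *Tubb6* was most like *Jag1* (0.912), a Notch ligand of vessel walls, *Tns1* (0.883) and *Trim47* (0.872). The weakest likeness was that of *Tuba4a*, to *Klhl36* (0.760), *Gramd1b* (0.739) and *Vav3* (0.734), while *Tuba1c* was most like *P2ry14* (0.849), *Pid1* (0.836) and *Il13ra1* (0.828) and *Tubb2a* like *Msra* (0.857), *Vps53* (0.840) and *Atp6v0a1* (0.814).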

How the data were processed

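UMI counts per gene and cell barcode were made by the authors from 10x Genomics libraries with Cell Ranger against Rnor_6.0, per the submitters' processing notes, and deposited unnormalized, 1 matrix for each of 3 NC and 3 CO libraries; the version and the annotation were not given in the sources used here. Computed here (Python 3.11.15, scanpy 1.11.5, numpy 2.4.6, scipy 1.17.1): barcodes under 500 UMIs or 200 genes were left out, which kept 38027 of 42293, and the highest Scrublet doublet scores were removed at 0.8% per 1000 barcodes (2255 cells), since Scrublet's own threshold called between 1 and 255 per library. A single barcode was shared over the 15 library pairs. A cell took the class with the largest share of its measured markers detected, given at least 3 markers and a lead of 10 percentage points; 4289 cells, with a median of 1107 UMIs, entered none.

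Counts were summed per class and library and over each group, because the libraries of a group differed about as little as parts of 1 pool; p-values over them would measure only that spread. Ratios have exact binomial intervals for CO over NC, levels and floors (3 UMIs) Poisson ones, and all of these cover counting error only. The calculation was tested on simulated data. edgeR 4.0.16 (quasi-likelihood, Benjamini-Hochberg adjustment) and DESeq2 1.42.0 in R 4.3.3, with libraries as replicates, were alternatives, fitted to all genes with at least 30 counts in a class, as were TMM and DESeq2 size factors, minima of 10 counts or none, doublets kept, a stricter gate (4 markers, 30 percentage points), at least 2000 UMIs, thinning to 2000 UMIs and leaving out each library. A further 3 alternatives (without proliferating neuroblasts, and endothelial cells without proliferation or tip cell UMIs) and the tip cell, capillary, venous, arterial and growth factor lists were chosen after seeing the data.

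The members and all gene lists were chosen with earlier results of these data known. Named beyond the 10 genes are, from each list of microtubule partners, up to 3 called genes each way by size of ratio, the 3 genes most alike in pattern, and *Mbp*, *Stmn2* and *Dcx* for free RNA; 1 further gene of that set is not reported here. *Ttc5*, *Actb*, *Actg1*, *Cldn5*, and the partner genes named outside their list's 3 largest, were picked after their values were seen. Promoters come from RefSeq's GRCr8 table, matched by symbol, and no coordinate was taken between builds.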

Additional observations from a re-analysis of the deposited data

Results flagged for a closer look

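In 6 cases a tubulin gene was called higher in CO in 1 class and lower in another, with library values that did not overlap in either; the difference between the classes was itself not tested. *Tuba1a* had a log2 ratio of 0.80 in endothelial cells, against -0.97 in microglia, a gap of 1.77, and against -1.01 in border-associated macrophages, a gap of 1.81. *Tubb2a* was lower in microglia (-0.59) and higher in ependymal cells (2.71, a gap of 3.30), choroid plexus cells (1.05, a gap of 1.64) and endothelial cells (0.97, a gap of 1.56). The microglial call for *Tubb2a* ended without NC library 01 (-0.57) or 03 (-0.57) and without CO library 01 (-0.58) or 02 (-0.58). *Tubb5* had 0.92 in endothelial cells and -0.68 in border-associated macrophages, a gap of 1.61. Endothelial cells were on the higher side in 4 of these 6 cases. The calls in border-associated macrophages were also unsteady. *Tuba1a* changed direction there with doublets kept, and *Tubb5* was no call with cells thinned. Neither had an adjusted p under 0.05 in DESeq2 with libraries as replicates. Libraries did not overlap for 28.3% (border-associated macrophages) to 49.7% (endothelial cells) of all genes in these classes. The share of all genes with such opposite calls was not computed.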

How the results depend on the processing

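The 34 called pairs of tubulin gene and class were recomputed under 20 settings, giving 594 values: 481 kept direction and call, 106 kept direction but not the call, and 7 reversed. Thinned to 2000 UMIs, 9 pairs were called higher and 6 lower, of which 8 and 5 were among the 21 and 13; of the 34, 19 kept direction but not the call and 2 reversed. With libraries as replicates edgeR called 15 pairs higher and 6 lower (at least 1.5-fold, adjusted p under 0.05), the same counts with the replicate block, and DESeq2 16 and 3. Leaving out 1 library gave 18 to 25 higher and 8 to 16 lower pairs, with 8 lower without NC library 02 and without CO library 01; 21 of the 34 pairs kept their call in all 6 of these, and 13 lost it in at least 1. The summed endothelial ratio of 0.86 was 0.91 with TMM, 0.92 with DESeq2 size factors, 0.91 thinned, 0.90 without proliferation marker UMIs, and 0.85 to 0.87 leaving out a library. The microglial ratio of -0.50 was -0.45 with TMM, -0.45 with DESeq2 size factors, -0.44 with doublets kept, -0.54 with the stricter gate, -0.54 thinned, and -0.52 to -0.49 leaving out a library. The *Tubb4a* share of 89.3% in NC oligodendrocytes was 88.6% with doublets kept, 89.9% with the stricter gate, 89.8% at 2000 UMIs, 91.5% thinned, and 89.0% to 89.5% leaving out a library. The *Tubb3* share of 18.2% in NC neuroblasts was 20.03% thinned and 17.5% to 18.7% leaving out a library. In NC proliferating neuroblasts 3 members were higher, 1 when thinned and 1 to 3 leaving out a library. One reversed value was *Tuba1c* in neuroblasts without proliferating cells (-4.06), on 5 UMIs in NC and 1 in CO, under the minimum of 30. Also reversed were *Tubb6* in oligodendrocytes thinned (0.79), *Tubb2a* in mural cells with the stricter gate (-0.53) and *Tuba1a* in border-associated macrophages with doublets kept (1.09). So were *Tuba1b* in T or NK cells with the stricter gate (-1.35) and thinned (-0.015), and *Tuba1c* in astrocytes. The astrocyte ratio ran from -3.38 to 1.26 leaving out a library, the last without NC library 02. The cause of these reversals was not tested. Same-numbered libraries deviated together in 1 of 30 correlations above 0.1 (range -0.128 to 0.145). Because libraries of a group differed about as little as parts of 1 pool, these correlations cannot decide whether the numbers pair the samples. TMM shifted the choroid plexus ratios by 0.10 relative to total counts and those of no other class by more than 0.052.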
